A study of Mus musculus with 2 samples.

Results

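Expression of 10 genes of the H3K9 methylation and heterochromatin machinery was examined in cultured mouse primordial germ cells (PGCs), the precursors of eggs and sperm. The 10 genes were taken by symbol from 23320 gene symbols present in both expression files, of which 18742 were above 0 in at least 1 library. They encode the methyltransferases Setdb1, Ehmt1, Ehmt2, Suv39h1 and Suv39h2, the co-repressor Trim28, the HP1 proteins Cbx1, Cbx3 and Cbx5, and the remodeller Atrx. All 10 were above 0 in both libraries, and each had 1 entry per file. PGCs were sorted on an Oct4-deltaPE-GFP transgene from the genital ridges of E13.5 embryos of MCH and C57BL/6 background. They were infected at an MOI of 5 with a lentivirus, either one carrying Klf9 (Klf9-OE PGCs) or a control vector (control PGCs), and were cultured for 1 day. The vector was of the CSII-EF type, and whether the control of this experiment was empty or carried mcherry is not stated. The labels describe the GS medium as containing bFGF, whereas the study describes the cells sequenced as cultured without it. Each group was 1 library, so every difference below is a difference between 2 libraries, with no test across cultures and no p-value.

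Methylation of lysine 9 of histone H3 marks silent chromatin. SETDB1 is brought to retrotransposons and imprinted regions by KRAB zinc finger proteins through TRIM28, EHMT1 and EHMT2 (GLP and G9a) act as a heterodimer that places the dimethyl mark in euchromatin, and SUV39H1 and SUV39H2 place the trimethyl mark at pericentromeric repeats. HP1 proteins bind the methylated lysine through a chromodomain, and ATRX, with DAXX, deposits histone H3.3 at heterochromatin. In PGCs the dimethyl mark is known to fall globally around the time of migration, and SETDB1 is known to keep retrotransposons silent while DNA methylation is erased.

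KLF9 is a zinc finger factor, and proteins of its family are known to bind GC-rich boxes and CACCC elements. The stretch before the transcription start is therefore shown for the 5 genes whose RPKM differed most clearly between the libraries by the measure given below. For Cbx1, Ehmt1, Suv39h2 and Ehmt2 a further measure, from the interval widths and also described below, gave the opposite direction. Sequences are from RefSeq on GRCm38.p6, run 5′ to 3′ on the strand of the gene, come from the window nearest to the 5′ edge of the control locus, and leave out bases inside an annotated GENCODE exon. Capitals mark the GC box core GGGCGG, its longer form GGGGCGGGG and the element CACCC, each on either strand. The longer form contains the core, and the motifs may overlap.
Cbx1, chr11:96788885-96789126, plus strand: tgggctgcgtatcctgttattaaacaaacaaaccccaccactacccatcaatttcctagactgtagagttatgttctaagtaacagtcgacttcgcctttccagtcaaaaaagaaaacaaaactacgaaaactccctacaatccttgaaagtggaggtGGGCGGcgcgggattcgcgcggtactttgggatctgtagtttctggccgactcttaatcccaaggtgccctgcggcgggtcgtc
Ehmt1, chr2:24919615-24919859, minus strand: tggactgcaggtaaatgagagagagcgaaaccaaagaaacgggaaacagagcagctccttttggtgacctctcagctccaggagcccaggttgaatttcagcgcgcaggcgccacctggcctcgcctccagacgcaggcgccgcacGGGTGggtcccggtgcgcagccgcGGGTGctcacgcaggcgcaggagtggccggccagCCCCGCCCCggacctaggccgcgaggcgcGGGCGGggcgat
Suv39h2, chr2:3475032-3475236, minus strand: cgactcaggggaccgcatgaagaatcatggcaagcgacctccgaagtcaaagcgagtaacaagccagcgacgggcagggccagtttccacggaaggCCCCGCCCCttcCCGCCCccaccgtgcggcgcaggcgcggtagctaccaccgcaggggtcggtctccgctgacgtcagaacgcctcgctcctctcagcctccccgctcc
Ehmt2, chr17:34898266-34898468, plus strand: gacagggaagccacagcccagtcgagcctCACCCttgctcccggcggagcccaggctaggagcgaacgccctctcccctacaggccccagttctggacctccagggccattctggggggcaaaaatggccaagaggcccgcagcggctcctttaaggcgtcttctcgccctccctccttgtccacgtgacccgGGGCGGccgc
Cbx5, chr15:103239853-103240102, minus strand: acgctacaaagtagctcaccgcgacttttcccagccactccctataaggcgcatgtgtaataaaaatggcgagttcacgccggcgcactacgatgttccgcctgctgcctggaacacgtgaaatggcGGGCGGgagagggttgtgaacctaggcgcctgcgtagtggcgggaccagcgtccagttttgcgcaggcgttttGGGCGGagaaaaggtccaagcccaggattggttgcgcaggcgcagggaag

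The Cbx1 stretch held 1 GC box core and no CACCC element, whereas the Ehmt1 stretch held 2 cores, 1 of them in the longer form, and 2 CACCC elements. The Suv39h2 stretch held 2 cores, 1 of them in the longer form. Ehmt2 and Cbx5, both with a lower RPKM in Klf9-OE PGCs, held 1 and 2 cores. Over the 250 bases before each start, RefSeq gave 14 windows for the 10 genes, and 12 of the 14 held the core, against 32.7% of 32851 windows of the same length. Counted per gene, 9 of the 10 held the core in at least 1 window, and Atrx was the member without it. Because expressed genes are rich in this motif, the share among genes with a mean RPKM of at least 20 is given beside this count per gene. Of 3332 such genes with a window, 68.5% held the core in at least 1 window. The longer form was found for 5 of the 10 genes, against 24.5% of those expressed genes, and CACCC for 6 of the 10, against 57.7%. The median log2 change of expressed genes was -0.036 with the core and -0.041 without it. A match describes letters in a window and no binding was measured.

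Values are RPKM, which is per length, so genes can be compared with each other within a library. The 95% interval given with each RPKM is the one deposited from Cufflinks and covers the error of estimation within 1 library. In control PGCs the 10 genes spanned a 16.4-fold range, from Trim28 at 281.5 to Ehmt1 at 17.2. Trim28 was within the top 1.23% of the 18742 genes and Ehmt1 within the top 26.4%. Of the 10 genes, 6 were within the top 10% and 9 were above an RPKM of 20. The order in control PGCs was Trim28, Cbx3, Ehmt2, Setdb1, Cbx1, Suv39h1, Suv39h2, Cbx5, Atrx and Ehmt1, and Cbx5 and Atrx were the neighbours whose intervals overlapped. In Klf9-OE PGCs the range was 9.38-fold and Cbx5 took the lowest place. There Setdb1 and Cbx1 stood next to each other with overlapping intervals and a ratio of 1.04. Trim28 had no usable interval there, so its place above Cbx3 has no error. In bulk RNA, fewer cells of a type and less RNA per cell cannot be told apart.

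**Figure D1:**
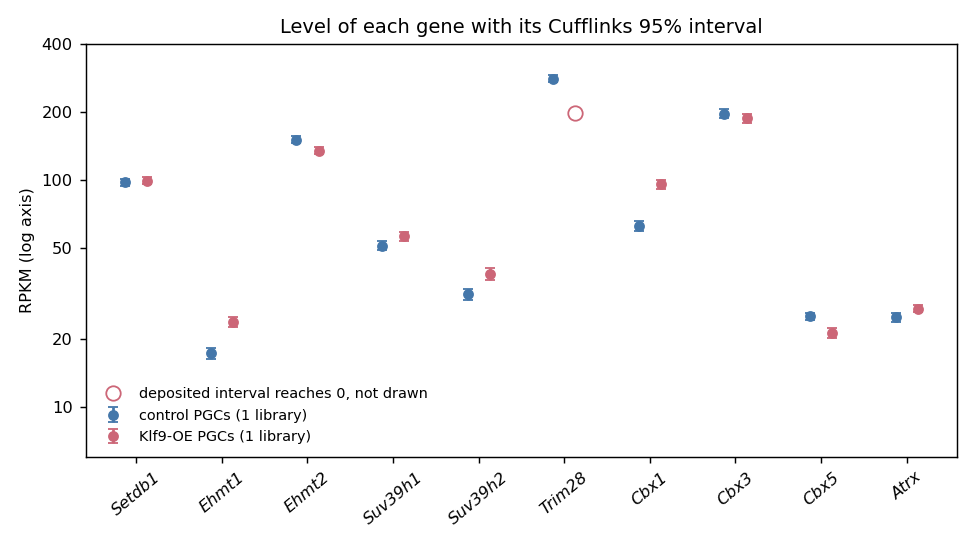
RPKM of the 10 genes on a log axis in the control library and in the Klf9-OE library, with the deposited 95% intervals as bars. Trim28 is highest in both libraries, Ehmt1 is lowest in control and Cbx5 is lowest in Klf9-OE. The open circle is Trim28 in Klf9-OE at 199, whose interval reaches 0 and is not drawn.

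The libraries were first checked by the vector gene and by cell type markers. The RPKM of Klf9 was 2.27 without and 80.8 with the Klf9 vector, 35.6-fold higher. The study reports a far larger rise at this MOI, by RT-qPCR, after a longer culture and in PGCs of an earlier embryonic day. These values are therefore not of like measure, and the gap between them was not tested. All 10 germ cell markers were measured in both libraries, with RPKM between 5.42 and 387 in control and between 4.34 and 378 in Klf9-OE. Intervals were apart for 8 markers lower in Klf9-OE and for 1 higher, Dazl. Among all genes with a minimum RPKM of 1 in either library, which all 10 markers pass, 20.2% were lower and 14.8% higher. The summed RPKM of the 10 germ cell markers was 1759 in control and 1480 in Klf9-OE. The sum of 9 gonad somatic markers was 23.1 and 31.4, that of 4 endothelial markers 19.9 and 30.2, and that of 4 macrophage markers 4.14 and 5.33. Members did not all follow the sums. With intervals apart, 4 somatic markers were higher and 1, Sox9, was lower, 2 endothelial markers were higher and 1, Tek, was lower, and 1 macrophage marker, Csf1r, was higher. The shares were 11.2% higher and 14.4% lower among all genes above 0, and 14.8% and 20.2% with a minimum RPKM of 1 in either library. Some of these markers were below an RPKM of 1 in both libraries, among them Tek at 0.735 in control and 0.439 in Klf9-OE. Of the somatic markers, Star was listed at 0 in control, and no marker of these 3 lists was at 0 in Klf9-OE. These values move with the comparison, and their part in the differences below was not tested.

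Among the methyltransferases, Ehmt1 had the RPKM ratio furthest from 1, and that of its partner Ehmt2 lay on the other side of 1. Ehmt1, on chromosome 2 with 27 exons, was at 17.2 (16.2 to 18.1) in the control library and at 23.7 (22.4 to 24.9) in the Klf9-OE library. The ratio was 1.38, with an interval from 1.28 to 1.49, and 4.25% of genes with a mean RPKM of at least 20 had a ratio as high. Ehmt2, on chromosome 17 and also with 27 exons, had 151 (146 to 157) in control and 135 (131 to 140) in Klf9-OE, a ratio of 0.893 (0.848 to 0.941). A ratio as low was found for 25.7% of the same genes. Ehmt2 was 8.81-fold above Ehmt1 in control (8.24 to 9.42) and 5.71-fold above it in Klf9-OE (5.36 to 6.08), and the intervals were apart. Ehmt1 made up 10.2% of the summed RPKM of the pair in control and 14.9% in Klf9-OE, while the sum itself was 169 and 159. The read numbers implied by the interval widths, described below, turned both directions, with a ratio of 0.883 for Ehmt1 and 1.01 for Ehmt2, so the shift within the pair rests on RPKM alone. With the libraries rescaled to the same summed RPKM, the intervals of Ehmt2 overlapped, at a log2 change of -0.10 in place of -0.16.

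The pericentromeric enzymes both had a higher RPKM in Klf9-OE PGCs. The implied reads gave Suv39h2 a ratio of 0.760, on the other side of 1. For Suv39h1 they gave 1.00, so its higher RPKM was not seen in the implied reads, although the measures were within 10% of each other. Suv39h2, on chromosome 2 with 6 exons, had 31.3 (29.5 to 33.2) in control and 38.6 (36.2 to 40.9) in Klf9-OE, a ratio of 1.23 (1.13 to 1.34). Suv39h1, on the X chromosome with 6 exons, had 51.5 (49.1 to 53.8) and 56.5 (54.2 to 58.9), a ratio of 1.10 (1.03 to 1.17). Ratios as high were found for 7.07% and 16.6% of genes with a mean RPKM of at least 20. The sum of the pair was 82.8 in control and 95.1 in Klf9-OE, 1.15-fold higher. Suv39h1 was 1.64-fold above Suv39h2 in control (1.53 to 1.77) and 1.47-fold above it in Klf9-OE (1.36 to 1.58), and these intervals overlapped. The locus of Suv39h2 began at position 3450373 of chromosome 2 in the control file and at 3455815 in the Klf9-OE file, so the values cover different stretches, and the part of this in the ratio was not tested.

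Setdb1 had overlapping intervals. It was at 97.9 (94.0 to 102) in the control library and at 99.6 (95.9 to 103) in the Klf9-OE library, a ratio of 1.02 with an interval from 0.963 to 1.07. Summed over the 5 methyltransferases, RPKM was 349 in control and 354 in Klf9-OE.

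Trim28 had the lowest ratio of the 10, but its value in Klf9-OE PGCs carried no usable error. RPKM was 281.5 (272 to 291) in control and 199 in Klf9-OE, a ratio of 0.707 and a log2 change of -0.50. The deposited interval in Klf9-OE ran from 0 to 11472. The locus assigned to Trim28 spanned 23.5 kb of chromosome 7 in the control file and 6.88 kb in the Klf9-OE file, with 16.6 kb upstream only in control. That stretch overlaps Zbtb45, which was listed at 0 in control and at 4.63 in Klf9-OE. How much of the Trim28 ratio comes from the different loci was not tested.

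The RPKM of the HP1 genes differed in direction. Cbx1, which encodes HP1β, was at 63.0 (59.9 to 66.2) in the control library and at 95.9 (91.4 to 100.4) in the Klf9-OE library. The ratio of 1.52 (1.42 to 1.63), a log2 change of 0.60, was the highest of the 10 genes, and 3.02% of genes with a mean RPKM of at least 20 had one as high. Cbx5, which encodes HP1α, had 25.1 (24.1 to 26.0) and 21.2 (20.2 to 22.3), a ratio of 0.847 (0.797 to 0.900). Cbx3, which encodes HP1γ and is the most abundant of the family, had 197 (188 to 206) and 188 (179 to 197), a ratio of 0.954 (0.893 to 1.02). The implied reads gave Cbx1 a ratio of 0.941, on the other side of 1, so its rank and the shares below rest on RPKM alone. In RPKM, Cbx1 stood above its control interval, Cbx5 below it, and Cbx3 overlapped. The sum of the 3 genes was 285 and 305, and the share of Cbx1 in it was 22.1% in control and 31.4% in Klf9-OE. Cbx3 went from 69.1% to 61.6% of the sum and Cbx5 from 8.79% to 6.96%. Cbx1 was 2.51-fold above Cbx5 in control (2.36 to 2.68) and 4.52-fold above it in Klf9-OE (4.22 to 4.83). Cbx3 was 3.13-fold above Cbx1 in control (2.92 to 3.35) and 1.96-fold above it in Klf9-OE (1.84 to 2.09).

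**Figure D2:**
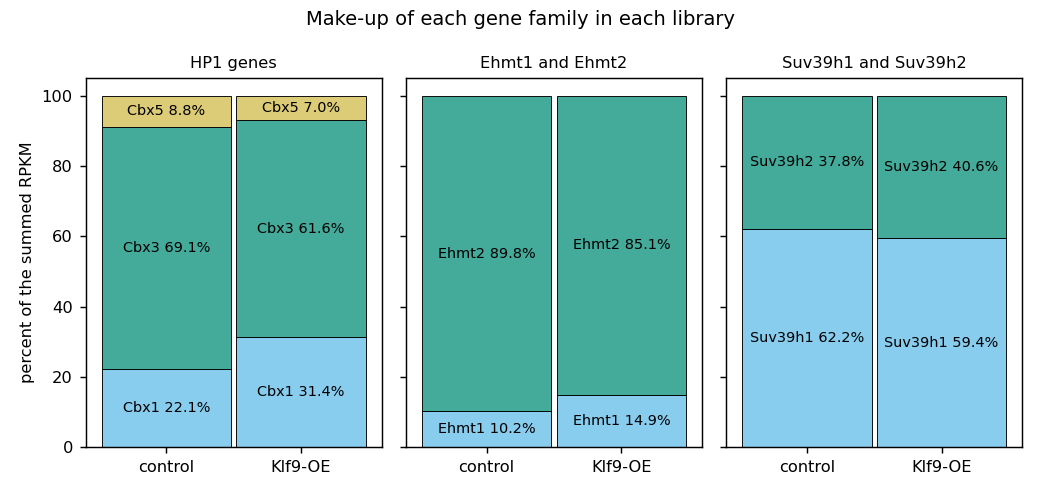
Percent of the summed RPKM of each gene family that each gene makes up, in the control and in the Klf9-OE library. The share of Cbx1 is 22.1% and 31.4%, that of Ehmt1 10.2% and 14.9%, and that of Suv39h2 37.8% and 40.6%.

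Atrx, on the X chromosome with 35 exons, was at 24.8 (23.8 to 25.9) in the control library and at 27.1 (26.1 to 28.1) in the Klf9-OE library, a ratio of 1.09 (1.03 to 1.15). Its intervals were apart by a narrow margin, and 17.8% of genes with a mean RPKM of at least 20 had a ratio as high. Atrx and Suv39h1 are X-linked, and the X-inactivation transcript Xist was 0.829 in control and 2.05 in Klf9-OE, with intervals apart. The 4 Y-linked genes differed in direction, with 59.0 and 49.3 for Eif2s3y (intervals apart), 3.72 and 3.20 for Kdm5d, 3.76 and 4.29 for Ddx3y and 4.95 and 5.50 for Uty, the last 3 with overlapping intervals. The labels do not give the sex of the embryos, and embryos of both sexes were dissected according to the methods. Over 168 X-linked genes with a mean RPKM of at least 20 the median log2 change was -0.015, against -0.040 over 4295 autosomal genes. Whether the mix of sexes plays a part in the values of Atrx and Suv39h1 was not tested.

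**Figure D3:**
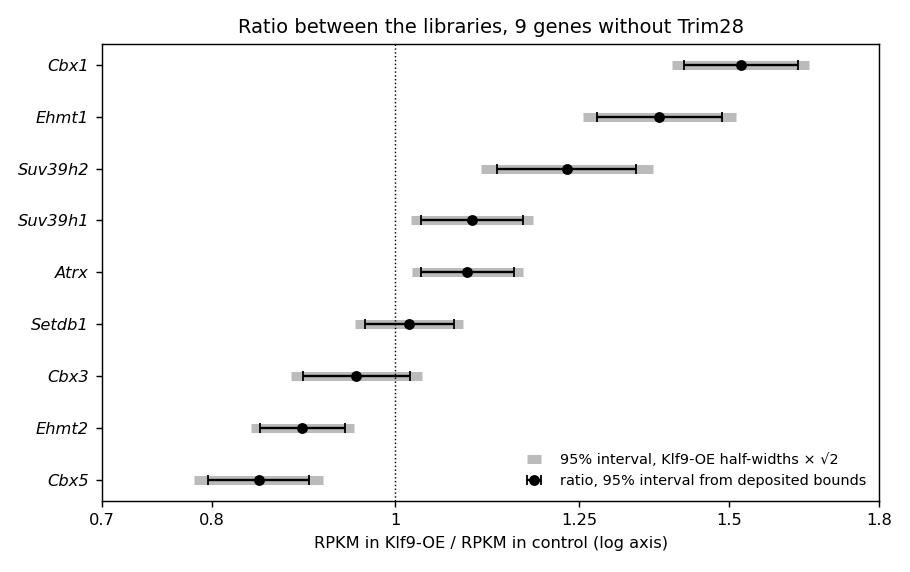
Ratio of Klf9-OE over control RPKM for 9 of the 10 genes on a log axis, with 95% intervals from the deposited bounds as black bars and, as grey bars, with the Klf9-OE half-widths multiplied by the square root of 2. Cbx1, Ehmt1 and Suv39h2 lie above 1, and Cbx5 and Ehmt2 lie below it, under both. For Suv39h1 and Atrx the grey bar of the ratio also stays above 1, although their intervals in the separate libraries then overlap. Trim28, which has no usable interval, is not drawn.

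Across the 10 genes, 6 were higher and 4 lower in Klf9-OE PGCs. Intervals were apart for 5 higher genes (Cbx1, Ehmt1, Suv39h2, Suv39h1 and Atrx) and for 2 lower genes (Ehmt2 and Cbx5). By the same rule, 11.2% of 18626 genes above 0 were higher and 14.4% were lower in Klf9-OE. With a minimum RPKM of 1 in either library, which all 10 genes pass, the shares were 14.8% and 20.2%, and among 4453 genes with a mean RPKM of at least 20, which they also pass, they were 13.9% and 24.7%. Low read numbers in the Klf9-OE library were mostly even, so reads may stand in pairs there, and the Klf9-OE intervals were also widened by the square root of 2. Then 3 genes were higher (Cbx1, Ehmt1 and Suv39h2) and the same 2 lower, against 11.3% and 21.2% of genes with a mean RPKM of at least 20. Suv39h1 and Atrx overlapped under the wider intervals.

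None of the 10 genes reached 2-fold, a change seen for 19.3% of genes above 0, 7.72% of those with a minimum RPKM of 1 and 3.81% of genes with a mean RPKM of at least 20. Cbx1 and Ehmt1 were at least 25% higher in Klf9-OE than in control, and Trim28 was at least 25% higher in control, against 6.6% and 11.8% of genes with a mean RPKM of at least 20. The median log2 change of the 10 genes was 0.075, and that of all 18742 genes was -0.015.

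**Figure D4:**
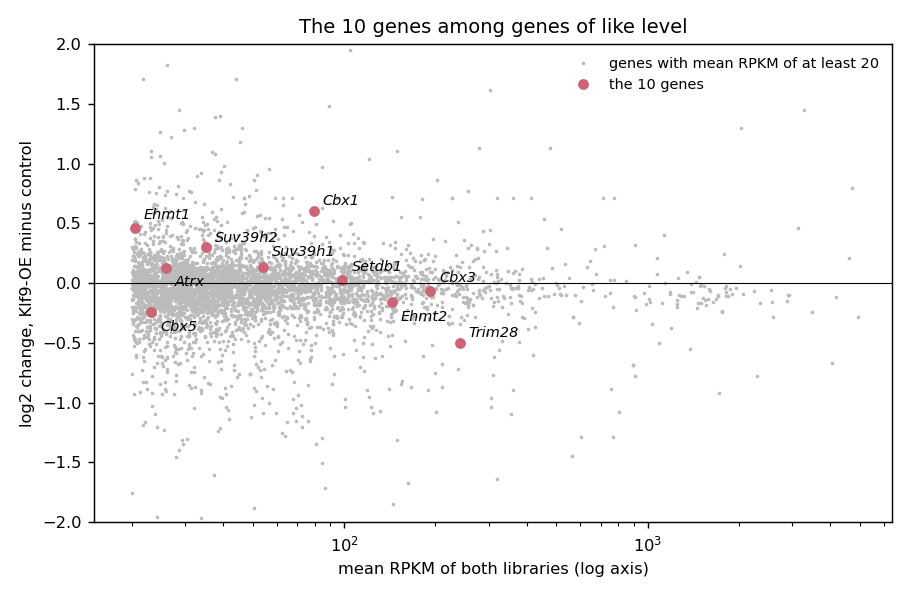
Log2 change of RPKM against mean RPKM of both libraries (log axis) for genes with a mean RPKM of at least 20, with the 10 genes named. Of 4467 genes, 87 lie beyond the vertical axis and are not drawn. Cbx1 and Ehmt1 lie towards the upper edge of the cloud and Trim28 towards the lower edge, while Setdb1, Cbx3, Atrx and Suv39h1 lie within it.

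The interval widths gave a further reading of the same values. For a gene whose interval reflects its read number alone, the widths in both libraries give the ratio of reads, which after division by the depth ratio of 1.22 should equal the ratio of RPKM. For Atrx the ratio of implied reads was 1.07 against 1.09 in RPKM, and for Suv39h1 it was 1.00 against 1.10. For Setdb1 it was 0.939 against 1.02, on the other side of 1. For Cbx1, Ehmt1 and Suv39h2, the genes with the highest RPKM ratios, and for Ehmt2 it also lay on the other side of 1, as given above. Cbx3 had 0.845 against 0.954 and Cbx5 0.472 against 0.847. The share of all genes with the measures on opposite sides of 1 was not taken. The measures were within 10% of each other for 3 of the 9 genes with usable bounds. They were so for 42.2% of 2517 genes with a mean RPKM of at least 20 whose transcripts were assembled anew in both libraries, and for 81.7% of 678 genes assembled in neither. The comparison of implied reads was added after the ratios were seen. All 10 genes carried an assembled identifier in control and 9 did in Klf9-OE, Cbx5 being the exception. The width of an assembled gene also holds the error of sharing reads among transcripts, and how far the transcript models set the RPKM of Cbx1, Ehmt1 and Suv39h2 was not tested.

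Some of the genes share sequence with others. Of the 51-base stretches of the longest coding transcript, the length of the reads, 28.8% for Cbx3 occur in 16 other genes, so the value of Cbx3 is uncertain. Among these genes are the lincRNA Gm49164, with 27.6% of the stretches, several Cbx3 pseudogenes, with up to 24.5%, and the protein-coding Als2cr12, with 11.4%. For Suv39h1 the share was 20.5%, with the antisense gene Gm14820, and the library kit does not keep the strand. It was 9.27% for Setdb1 and 4.23% for Suv39h2, which shares its stretches with Dclre1c. For Cbx1, Ehmt1, Ehmt2, Trim28 and Atrx no stretch was shared.

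Around the 10 genes, 48 further genes of the same pathway were measured, of 57 symbols listed. Intervals were apart for 9 higher and 9 lower genes, also when widened, against 14.8% and 20.2% of all genes with a minimum RPKM of 1 in either library, and these shares also stand behind the counts of the lists below. None reached 2-fold. The other 30 overlapped, and 3 of them had a deposited lower bound of 0. The median log2 change was -0.023, with a range from -0.43 to 0.44. The ratio of implied reads was not taken for these genes, so their directions rest on RPKM alone.

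Among the cofactors of the methyltransferases, 6 genes were measured, of which 2 were higher and 1 lower. Cdyl, a chromodomain protein that binds the EHMT enzymes, had 12.7 in control PGCs and 15.8 in Klf9-OE PGCs, and Atf7ip2, a relative of the SETDB1 cofactor ATF7IP, had 47.8 and 55.9. The gene listed as 2810474O19Rik, now Resf1, had 52.8 and 45.6. In the HUSH complex, which silences retroelements together with SETDB1, 2 of 4 genes were higher and none lower, beside background shares of 14.8% and 20.2%. These were Fam208a, the TASOR subunit, with 14.0 and 16.2, and Mphosph8, the chromodomain subunit, with 213 and 233. None of the 3 other methyltransferases, 3 paralogs of Trim28 and 5 KRAB zinc finger genes had intervals apart, and their most expressed members had 24.0 and 23.6 for Prdm2, 13.7 and 13.9 for Trim33, and 24.1 and 23.3 for Zfp568.

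Among partners of HP1, 1 of 6 genes was higher and 2 were lower. Lrif1 had 13.9 in control PGCs and 18.8 in Klf9-OE PGCs, the highest log2 change of the 48 genes at 0.44. Chaf1b, a subunit of the chromatin assembly factor, had 20.3 and 15.1, and the methyl-CpG binding gene Mbd1 had 25.5 and 19.9. In the ATRX and H3.3 axis, 1 of 7 genes was higher and 3 were lower. The RPKM of the H3.3 genes differed in direction, with 338 and 252 for H3f3a and 252 and 289 for H3f3b. In RPKM, H3f3a made up 57.3% of their sum in control and 46.5% in Klf9-OE. Both genes carried an assembled identifier in control only. Their implied reads, before division by the depth ratio of 1.22, were 1816 and 7145 for H3f3a and 1971 and 16862 for H3f3b. The direction of H3f3a and these shares therefore rest on RPKM alone. Both H3.3 genes encode the same protein, and the sum was 590 and 541. The H3.3 chaperone Hira had 31.9 and 24.1, and its partner Cabin1 27.0 and 23.2, while Daxx, the partner of ATRX, had 26.7 and 24.7 with overlapping intervals. Implied reads, again before division by the depth ratio, were 1147 and 1419 for Hira and 1646 and 2262 for Cabin1.

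Among 11 demethylases of H3K9 and related genes, 2 were higher and 3 lower. Kdm1a, the most abundant, had 108 in control PGCs and 89.2 in Klf9-OE PGCs, Kdm3b had 29.3 and 25.6, and Kdm4b had 8.82 and 7.13. Kdm4a had 16.4 and 19.2. Of 3 genes acting on H4K20 or on the inactive X chromosome, Suv420h1 was higher, with 20.3 and 23.0, and Smchd1 had 47.2 and 44.3 with overlapping intervals. In the same libraries 5 of 10 proliferation genes were higher and none lower, against 13.9% and 24.7% of genes with a mean RPKM of at least 20, with 22.3 and 28.5 for Mki67, and their part in the values of chromatin genes was not tested.

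**Figure D5:**
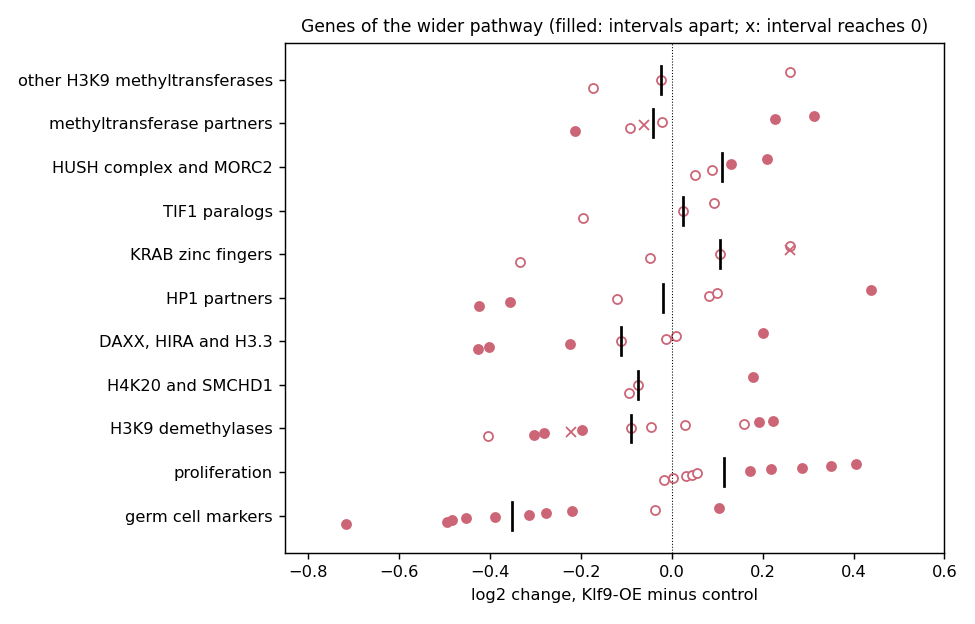
Log2 change of RPKM for each measured gene of the pathway lists, grouped by list, with proliferation genes and germ cell markers below. Filled circles have intervals apart, open circles overlap, crosses have an interval that reaches 0, and black ticks are the medians. Pathway genes lie between -0.43 (H3f3a) and 0.44 (Lrif1).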

How the data were processed

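RNA-seq of 1 control and 1 Klf9-OE library was analysed. The authors prepared libraries with an unstranded TruSeq kit, aligned 51-base single-end reads by TopHat2 and Bowtie (build mm10), and deposited FPKM values from Cufflinks with 95% bounds, which for single-end reads equal RPKM. The annotation was RefSeq, and tool versions are not given in the sources used here. The files hold no read totals. Cuffdiff results were not used.

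RPKM was summed per symbol, and log2 changes used a pseudocount of 0.1. Intervals of ratios were taken from the deposited bounds by the delta method. With 1 library per group no test was run. Implied reads are the square of 2 times RPKM over the upper half-width. By this measure 1.22 reads were counted in Klf9-OE per control read (median of 4891 genes not assembled anew). Read numbers from 1 to 9, whole within 0.06, were even for 36.4% of 2132 genes in control and 89.0% of 1767 in Klf9-OE. Half-widths of the 10 genes were 3.29% to 5.88% in control.

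Genes outside the 10 were named where intervals stayed apart after widening, at most 4 per list, and otherwise by the highest control RPKM. Daxx, Smchd1 and Zbtb45 were chosen after their values were seen. The members and lists were chosen with earlier results of these data known. The rule for intervals apart and the interval of the ratio were tested on simulated read counts. The simulation held no assembled transcripts, differing loci or paired reads, and the other steps were not part of it. Python 3.11.15 with numpy 2.4.6, pandas 2.3.3 and matplotlib 3.10.9 was used.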

Additional observations from a re-analysis of the deposited data

How the results depend on the processing

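Rescaling RPKM, pseudocounts of 0.01 and 1, the highest entry per symbol, other sets of background genes, widened intervals and leaving out single genes gave 73 alternative values. Of these, 71 kept their direction and moved by less than the error of the value, or by at most 1.5-fold for counts. Part of the 71 could not have moved. The highest entry is the only entry of each of the 10 genes, and another background leaves their own values as they are. Leaving out Trim28 cannot change a count of intervals apart. For Trim28 itself the error was so wide that any value would have counted as unmoved. Cbx3 came nearest to turning, from a log2 change of -0.07 to -0.0064 with the same sum. The median log2 change of the 10 genes was 0.075, 0.10 with the same upper quartile, 0.14 with the same sum and 0.13 without Trim28. It was -0.022 without the X-linked Suv39h1 and Atrx, as it must be without any pair of the 5 highest genes, so this says nothing of X linkage. With a difference of 25% in place of 2-fold, 3 genes were changed in place of 0. The number of genes with intervals apart was 7, and 6 with the same sum, where Ehmt2 was lost, and 5 with widened intervals. Leaving out genes and the set with a mean RPKM of at least 20 were chosen after seeing the data. No paired analysis was possible because each group has 1 library. The bounds leave out differences between cultures, and the value of Trim28 in Klf9-OE has no usable bound.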
